A study of Mus musculus with 4 samples.

Results

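The arrays used here carried capture probes for human and rat miRNAs beside those for mouse miRNAs, and all of them were hybridised with RNA of mouse neurons. Of 1113 probes that named a human or rat miRNA and no mouse miRNA, 243 gave a background-subtracted signal of 300 or more on at least 1 of 4 arrays, and these 243 probes are described here. The probes were chosen by that measured signal, so their being above 300 is a description and not a result. They comprised 196 human-only probes and 47 rat-named probes, and 4 of the rat-named probes also named a human miRNA. Over all organisms the arrays held 2345 miRNA probes, of which 705 were detected by the same threshold.

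MicroRNAs are short RNAs that guide Argonaute proteins to messenger RNAs, mainly through the seed, which is bases 2 to 8 counted from the 5′ end. In miRNA names the prefix gives the species (hsa for human, rno for rat, mmu for mouse), related miRNAs of different species share a number, and a star marks the arm of the hairpin that was held to be the less abundant at the time of naming. An array probe reports whatever labelled RNA binds to it. A probe designed on a human or rat miRNA can therefore bind a mouse miRNA of equal or similar sequence, or a fragment of another small RNA, and which RNA was bound was not tested here. Names that begin with hsa-miRPlus are those of the probe maker's own sequences, and 10 of the 243 members carried such a name.

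The RNA came from untreated primary cortical neurons of Swiss Albino mouse embryos at gestation day 15, which were cultured for 2, 4, 6 or 8 days. All cultures were grown in Neurobasal medium with B27, and no genetic modification or agent is named for any of them. Per the study's methods, the RNA of separate experiments was pooled for each day, and each day had 1 array. The spread between cultures was therefore not measured, and no day can be tested against another.

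The sequences of the human and rat probes were not used here. For the members on which the results turn, the mature mouse miRNA that carries the same number, letter and arm is printed from RefSeq on build GRCm38.p6, with the seed in capitals. The arm was assigned from the older names with a star. The mouse counterparts of the members that were lower on Day 8 are shown together, because the name of each differs from that of the member only in its species prefix and arm notation.
mmu-miR-106a-5p: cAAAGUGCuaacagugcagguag
mmu-miR-18b-5p: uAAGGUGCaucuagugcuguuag
mmu-miR-92a-3p: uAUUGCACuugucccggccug
mmu-miR-493-5p: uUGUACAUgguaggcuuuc
mmu-miR-138-2-3p: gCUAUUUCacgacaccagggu

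The gene of miR-106a-5p lies on the minus strand at chrX:52742541-52742563, and that of miR-18b-5p at chrX:52742381-52742403 on the same strand. The mature miR-92a-3p is annotated at 2 places, at chrX:52741854-52741874 and, within the span of the host gene Mir17hg, at chr14:115044476-115044496. The seed AAAGUGC of miR-106a-5p was shared by 6 other mature mouse miRNAs of the RefSeq table, among them miR-17-5p and miR-20a-5p. The seed of miR-18b-5p was shared by miR-18a-5p, and that of miR-92a-3p by 5 others. The miR-493-5p sequence lies at chr12:109580243-109580261 within the span of Rtl1, and that of miR-138-2-3p lies at chr8:94324359-94324379 within the span of Nup93. No other mature mouse miRNA of the table had either of these last seeds.

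The counterparts of members that were higher on Day 8, and of hsa-miR-300, which is described with its mouse probe, are shown for the same purpose.
mmu-miR-711: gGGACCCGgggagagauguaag
mmu-miR-376a-3p: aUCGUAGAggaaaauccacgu
mmu-miR-136-3p: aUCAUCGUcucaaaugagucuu
mmu-miR-665-3p: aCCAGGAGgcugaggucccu
mmu-miR-300-3p: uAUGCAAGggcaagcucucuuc
mmu-miR-129-2-3p: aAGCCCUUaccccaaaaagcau

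The miR-711 sequence lies at chr9:108969970-108969991 within the span of Col7a1, a collagen gene. The next 4 lie close together on chromosome 12, namely miR-665-3p at chr12:109586368-109586387, miR-136-3p at chr12:109595366-109595387, miR-376a-3p at chr12:109723824-109723844 and miR-300-3p at chr12:109724363-109724384. This is the imprinted Dlk1-Dio3 region, whose human counterpart is at 14q32 and which holds a large cluster of miRNAs. The miR-129-2-3p sequence lies at chr2:94241376-94241397 within the span of Mir670hg. Its member also names rno-miR-129-1*, whose mouse counterpart miR-129-1-3p is not printed. The mouse probes of both are given below with the member. The seeds of miR-711, miR-665-3p, miR-136-3p, miR-376a-3p and miR-300-3p occurred in no other mature mouse miRNA of the table.

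Among all probes of each kind, 22.5% of human-only probes (196 of 870) and 19.3% of rat-named probes (47 of 243) reached 300 on at least 1 array, against 40.7% of mouse-named probes (419 of 1030) and 21.3% of virus-named probes (43 of 202). These shares follow from the threshold that chose the members and were not tested. Of the 243 members, 159 were at 300 or more on all 4 arrays, 49 on 2 or 3 arrays and 35 on 1 array. By day, 202, 221, 164 and 211 members reached 300 on Days 2, 4, 6 and 8, and the median member signal was 633, 736, 465 and 666. The mean of the 4 arrays had a median of 646 over members, and of 924 over detected mouse-named probes.

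Most of the members were dim. The mean signal of the 4 arrays was under 1000 for 154 members, from 1000 to 5000 for 72, from 5000 to 50000 for 13, and above that for 4. The brightest of the negative control probes gave 139, 123, 93.9 and 117 on Days 2, 4, 6 and 8. Just inside the threshold were rno-miR-328b-3p (highest signal 300.3, on Day 8), hsa-miR-1294 (302, on Day 2) and hsa-miR-3649 (303, on Day 4). Just outside it were hsa-miR-520e (298), rno-miR-103-1* (297) and hsa-miR-374b* (297).

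Of the members, 33 had a mouse probe of the same name. For 27 there was one of the same number and letter with the arm written differently, and for 17 one of the same number with another letter. An arm written differently can be another arm or the same arm in another notation, as for rno-miR-1188-3p and mmu-miR-1188*. The other 166 members had no mouse probe of their number. Besides the miRPlus names among these, 156 numbered members had no mouse miRNA gene of that number in RefSeq, and 1, rno-miR-3572, had such a gene. A mouse probe of the same number existed for 35 of 47 rat-named members and for 42 of 196 human-only members. By number, 64 of 241 probes below 500 were members, 59 of 318 from 500 to 999, 31 of 128 from 1000 to 1999, 56 of 312 from 2000 to 3999, and 24 of 80 from 4000 upwards.

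The labelled cell type was checked on mouse probes. miR-124, which is abundant in neurons, gave between 63564 and 63802 on the 4 arrays. These values are as high as those of the saturated probe of hsa-miR-720 below, so they show no stable level between days. miR-143, an astrocyte and mesenchymal miRNA, gave between 5.12 and 29.5, and miR-223, a myeloid miRNA, between -35.6 and 28.0, so both were below the brightest negative control on each array.

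The brightest members were human names that are known to overlap transfer RNA. hsa-miR-720 gave 63244, 63457, 63373 and 63611 on Days 2, 4, 6 and 8, and hsa-miR-1260b gave 62941, 63074, 62563 and 63095. hsa-miR-1280 gave 60534, 60802, 53700 and 57947, and hsa-miR-1260 gave 56681, 59220, 47363 and 55391. These 4 probes had 50% or more saturated pixels on at least 1 array, so their signals are lower bounds there and no ratio between days is given for them. hsa-miR-1274b, another name that matches transfer RNA, was not saturated and gave 5200, 6328, 3811 and 4679, with a log2 difference from Day 2 of -0.41 ± 0.10 on Day 8. hsa-miR-1274b is named here after its values were seen. The probe that names human and mouse miR-1274a, the same number with another letter, gave 10051, 13458, 9039 and 14031. Its Day 8 difference went the other way, at 0.51 ± 0.13.

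The next brightest members were hsa-miR-4286, hsa-miR-4301, hsa-miR-1827 and hsa-miRPlus-A1015. hsa-miR-4286 gave 35579, 35232, 25617 and 29883, and hsa-miR-4301 gave 30733, 36520, 25321 and 32677. hsa-miR-1827 gave 27543, 29377, 22051 and 24074, and hsa-miRPlus-A1015 gave 21934, 22754, 13429 and 15637. All of them were lowest on Day 6, as was the median over members. After normalization their Day 8 differences from Day 2 were small, at -0.42 ± 0.21, -0.10 ± 0.17, -0.30 ± 0.19 and -0.30 ± 0.20 in the order of their names. No mouse probe carried these numbers.

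To compare days, signals were background-corrected, put on the log2 scale and quantile-normalized, and the signal log ratio (SLR) is the log2 difference of a day from Day 2. The value after ± is the SD of that difference over replicate spots, usually 4 per array, and covers technical error within arrays only. On Day 8, 32 members (13.2%) were higher than on Day 2 by over 0.6, against 12.2% of all 705 detected miRNA probes, and 22 members (9.05%) were lower by over 0.6, against 9.93%. The members' shares on Day 8 were close to those of all detected probes in both directions. Among the 159 members at 300 or more on all arrays, 18 were higher and 12 lower. Scaling to endogenous control RNAs gave 46 higher and 17 lower members, and scaling to the median gave 22 higher and 41 lower, so the balance between directions depended on the scaling. With the 11 members that rested on few spots left out, 29 were higher and 19 lower.

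On Day 4, 10 members were higher, against 5.82% of all detected probes higher, and 5 were lower, against 1.84%. The members' shares were 4.12% and 2.06%. Only 4 of the 10 and 3 of the 5 were at 300 or more on both arrays of the ratio. With the members resting on few spots left out, 8 were higher and 3 lower. Median scaling gave 3 higher and 12 lower members on that day, and endogenous controls gave 11 and 3.

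On Day 6, 12 members were higher (4.94%, against 7.66% of all detected probes) and 7 were lower (2.88%, against 3.69%). All 12 of the higher members stayed without those that rested on few spots, and 5 of the lower ones did. Median scaling gave 7 higher and 19 lower members, and without any normalization 158 members were lower and 0 higher. The median Day 6 SLR of all detected probes was -0.67 without normalization. The median member signal was lowest on the Day 6 array.

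Among members with 300 or more on both arrays and non-overlapping spots, the largest increases on Day 8 belonged to hsa-miR-1973 and hsa-miR-711. hsa-miR-1973 gave 2404 ± 154, 3453 ± 156, 3363 ± 52.9 and 8738 ± 75.6 on Days 2, 4, 6 and 8 (mean ± SD of spots). Its spots on Day 8 lay above all those on the other days. Its SLR was 0.34 ± 0.11, 0.82 ± 0.09 and 1.73 ± 0.09 on Days 4, 6 and 8.

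hsa-miR-711 gave 1488 ± 128, 2635 ± 64.6, 2440 ± 56.2 and 5813 ± 148. The Day 2 spots lay below those of every later day. Its SLR was 0.69 ± 0.10, 1.04 ± 0.10 and 1.68 ± 0.11 on Days 4, 6 and 8, the highest among members with non-overlapping spots on Day 6.

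hsa-miR-1275 differed from both in its time course. It gave 8027 ± 402, 6690 ± 295, 5788 ± 124 and 17753 ± 2331 on Days 2, 4, 6 and 8. Its SLRs were -0.38 ± 0.08, -0.01 ± 0.08 and 1.18 ± 0.19 on Days 4, 6 and 8, and only that of Day 8 passed 0.6. hsa-miR-1246, a name that is known to match a part of the U2 spliceosomal RNA, gave 1869, 2182, 1920 and 3777, with an SLR of 0.85 ± 0.06 on Day 8. hsa-miR-1915 gave 311, 505, 426 and 701 and had an SLR of 0.82 ± 0.36, a spread of spots that came mainly from the Day 2 array. Its SLR was 0.52 with median scaling and 0.43 without normalization, short of 0.6.

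The probe named rno-miR-129-1* and rno-miR-129-2* gave 454, 1000.2, 744 and 1115 on Days 2, 4, 6 and 8. miR-129 is known as a miRNA of neurons. The SLR of the probe was 0.79 ± 0.09 on Day 4, the highest of any member with both arrays at 300 or more, and 0.87 ± 0.07 and 0.94 ± 0.09 on Days 6 and 8. There were 3 mouse-named probes with the same number. That of mmu-miR-129-1-3p gave 1873, 4053, 3458 and 5383, with an SLR of 1.23 ± 0.05 on Day 8. The mouse-named 5p probe gave 1894, 3212, 2922 and 3614, with an SLR of 0.78 ± 0.06. The probe of mmu-miR-129-2-3p stayed under 300 on every array, at 92.1, 190.4, 165 and 221.

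With the members of the 14q32 cluster below, 8 further members complete the 18 that were higher on Day 8 with 300 or more on all arrays, and they are named after their values were seen. All 8 gave their highest signal on Day 8. hsa-miR-4299 gave 7055, 6672, 5392 and 11231 on Days 2, 4, 6 and 8, with a Day 8 SLR of 0.68 ± 0.09. hsa-miR-1469 gave 4096, 3909, 3464 and 6962, with 0.65 ± 0.09, and hsa-miR-638 gave 925, 989, 866 and 1754, with 0.73 ± 0.07. hsa-miR-3621 gave 849, 808, 652 and 1544, with 0.63 ± 0.11.

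hsa-miR-3611 gave 1616, 1901, 1449 and 2789, hsa-miR-3685 gave 1201, 1266, 1151 and 2039, hsa-miR-642b gave 1029, 1314, 1025 and 1849, and hsa-miR-3201 gave 378, 549, 369 and 737. The Day 8 SLRs of these 4 ran from 0.60 ± 0.07 for hsa-miR-3611 to 0.66 ± 0.11 for hsa-miR-642b and 0.66 ± 0.17 for hsa-miR-3201, near the limit of 0.6. No mouse probe carried the number of any of these 8 members.

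Some members crossed 300 between Day 2 and Day 8. For these only a bound on the Day 8 fold is given, and it holds for the quantile-normalized signals only. The bright array was set against the probe's own signal on the dim array. Where larger, the lowest normalized signal of probes with every spot at 300 was used instead. hsa-miR-193b gave 128, 396, 225 and 628 on Days 2, 4, 6 and 8, and was at least 1.58-fold higher on Day 8. hsa-miR-3146 gave 252, 478, 312 and 652 and was at least 1.63-fold higher. Its Day 8 SLR was 0.50 without normalization and 0.59 with median scaling, both a smaller change than that bound. hsa-miRPlus-C1115 gave 287, 391, 313 and 691 and was at least 1.70-fold higher. In the other direction, hsa-miR-301b gave 701, 536, 258 and 241 and was at least 1.97-fold lower on Day 8.

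Among the members with the largest decreases were hsa-miR-106a, hsa-miR-18b and hsa-miR-92a, named for paralogous clusters around miR-17 that are known from proliferating progenitors. hsa-miR-106a gave 1543 ± 219, 1143 ± 92.4, 531 ± 48.2 and 531.5 ± 42.1 on Days 2, 4, 6 and 8. Its spots on Days 6 and 8 lay below those on Days 2 and 4. Its SLR was -0.50 ± 0.19, -0.99 ± 0.19 and -1.37 ± 0.18.

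hsa-miR-18b gave 998 ± 47.7, 799.7 ± 44.6, 392 ± 40.0 and 343 ± 29.3, with SLRs of -0.43 ± 0.10, -0.81 ± 0.14 and -1.32 ± 0.10. hsa-miR-92a gave 1123 ± 92.9, 767 ± 48.7, 455 ± 19.9 and 548 ± 36.3, with SLRs of -0.63 ± 0.13, -0.77 ± 0.11 and -0.96 ± 0.12. All 3 names were lower by over 0.6 on Days 6 and 8, and hsa-miR-92a on Day 4 too. The list of this cluster and its paralogues had 5 detected members of 18 probes. The other 2 were star names, hsa-miR-363*/rno-miR-363* with a Day 8 SLR of -0.35 ± 0.21, and rno-miR-92a-2*, which was under 300 on Days 2, 4 and 6 and gave 523 on Day 8.

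The median Day 8 SLR of the 5 was -0.96, against -0.02 over all detected probes. It lay between -1.16 and -0.71 under the other scalings, signal measures and filters on spots, with 3 of the 5 lower by over 0.6 under each.

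hsa-miR-4324 and rno-miR-3597-5p, for which no mouse probe of the number was present, also decreased in signal. hsa-miR-4324 gave 4907 ± 637, 4526 ± 34.6, 2307 ± 19.7 and 2624 ± 46.3 on Days 2, 4, 6 and 8, with a Day 8 SLR of -1.05 ± 0.19, or -0.50 with endogenous controls. rno-miR-3597-5p gave 1392 ± 43.8, 1538 ± 20.1, 697 ± 38.2 and 688 ± 30.6, with a Day 8 SLR of -0.98 ± 0.07. For rno-miR-3597-5p the Day 4 signal was not below that of Day 2. Further lower members were probes of miR-3607 and miR-664, whose hairpins are known in human to lie within small nucleolar RNAs. hsa-miR-3607-3p gave 7939, 7594, 4778 and 5405 with a Day 8 SLR of -0.75 ± 0.16, and hsa-miR-3607-5p, named after its values were seen, gave 4741, 4864, 2938 and 3376 with -0.63 ± 0.15. rno-miR-664-1* gave 6277, 5853, 3753 and 4404, with a Day 8 SLR of -0.72 ± 0.11. Not all members of this number were lower. hsa-miR-664, named after its values were seen, gave 727, 832, 628 and 777, with a Day 8 SLR of -0.01 ± 0.10. The mouse-named probe of miR-664 had a Day 8 SLR of 0.03 ± 0.06, and that of miR-664* stayed under 300 on every array. Under the 4 other scalings neither hsa-miR-3607-3p nor rno-miR-664-1* passed 0.6. The SLR of hsa-miR-3607-3p was then between -0.58 without normalization and -0.15 with endogenous controls, and that of rno-miR-664-1* between -0.54 and -0.11.

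The other members that were lower on Day 8 with 300 or more on all arrays were rno-miR-465, rno-miR-448* and hsa-miR-3654, also named after their values were seen. rno-miR-465 gave 2356, 2298, 1467 and 1513, with a Day 8 SLR of -0.71 ± 0.08. rno-miR-448* gave 1779, 1892, 1027 and 1141, with -0.66 ± 0.23. hsa-miR-3654 gave 5760.3, 4649, 3310 and 4487, with -0.62 ± 0.06. All 3 were lowest on Day 6. Of the mouse probes numbered miR-465, only that of miR-465b-5p was at 300 or more on every array, with a Day 8 SLR of 0.01 ± 0.14. Those of miR-448-3p and miR-448-5p stayed under 300 on every array.

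On Day 4 the lowest SLRs among members with non-overlapping spots were those of hsa-miR-513a-5p (-0.73) and hsa-miR-3686 (-0.68), followed by hsa-miR-92a. hsa-miR-513a-5p gave 2513, 1617, 1266 and 2061 on Days 2, 4, 6 and 8. hsa-miR-3686 gave 4755, 3381, 3002 and 5360. Both were nearer to Day 2 on Day 8, with SLRs of -0.36 ± 0.06 and -0.14 ± 0.06.

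Members of the human 14q32 imprinted cluster moved in both directions. Of 50 such probes 15 were detected, and on Day 8, 6 of these were higher by over 0.6 and 2 were lower, where 12.2% of all detected probes were higher and 9.93% lower. They had a median SLR of 0.31 against -0.02 over all detected probes. The median lay between -0.04 and 0.41 under the other settings and was below 0 without normalization only. With median scaling, 2 were higher and 3 lower.

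hsa-miR-376a gave 354, 752, 541 and 764 on Days 2, 4, 6 and 8, with SLRs of 0.68, 0.75 and 0.77 ± 0.12. Its Day 8 SLR was 0.51 with median scaling and 0.42 without normalization, short of 0.6. The probe of hsa-miR-136* and rno-miR-136* gave 699.7, 1293, 1019 and 1367, with SLRs of 0.63, 0.80 and 0.74 ± 0.06, or 0.57 on Day 8 without normalization. Both were already higher on Day 4 and changed little after it. hsa-miR-376a*, from the other arm of the miR-376a hairpin and named after its values were seen, gave 414, 740, 654 and 821, with SLRs of 0.49, 0.79 and 0.68 ± 0.05. hsa-miR-665 gave 3998, 4634, 3222 and 6836 and was higher on Day 8 alone, with SLRs of 0.12, 0.07 and 0.64 ± 0.11.

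In the other direction, the probe of hsa-miR-493* and rno-miR-493* gave 1034 ± 44.6, 914 ± 51.4, 489 ± 12.0 and 359 ± 51.4. Its SLR was -0.30 ± 0.09, -0.59 ± 0.06 and -1.33 ± 0.15, the second lowest among members with non-overlapping spots on Day 8. rno-miR-539* gave 523, 557, 363 and 281 and was at least 1.56-fold lower on Day 8. The mouse probes of miR-539-5p and miR-539-3p stayed under 300 on every array. rno-miR-134* gave 2707, 2863, 1780.5 and 2063, with a Day 8 SLR of -0.47 ± 0.10.

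The chromosome 19 cluster of miRNAs, which is known only from primates and is expressed in placenta, had 8 detected probes of 49. hsa-miR-498 gave 2709, 2696, 2066 and 3553, and hsa-miR-519e* gave 1350, 1475, 1198 and 1660. hsa-miR-519e gave 806, 928, 587 and 683, and hsa-miR-520d-5p gave 346, 383, 266 and 302. Their Day 8 SLRs were 0.24 ± 0.06, 0.17 ± 0.06, -0.30 ± 0.12 and -0.23 ± 0.17 in that order. None of the 8 passed 0.6 on any day with the main normalization, where 12.2% of all detected probes were higher and 9.93% lower on Day 8. This depended on the scaling. On Day 6, 5 of the 8 were lower by over 0.6 without normalization, and 5 with spike-in controls. On Day 8, 1 was higher with endogenous controls and 1 lower without normalization.

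The X-linked cluster of miR-506 to miR-514 and miR-888 to miR-892, known mainly from testis, had 6 detected probes of 22. Their median Day 8 SLR was -0.34, and 0 of the 6 passed 0.6 on Day 8, where 12.2% of all detected probes were higher and 9.93% lower. Under some of the other settings 1 of the 6 was lower by over 0.6 on Day 8, and 0 were higher under any. hsa-miR-513a-5p, described above for its Day 4 SLR of -0.73, is one of them. hsa-miR-891a gave 2409, 2063, 1299 and 1835, with -0.41 ± 0.41. hsa-miR-513a-3p gave 597, 494, 294 and 400.1, with -0.51 ± 0.30. hsa-miR-513b gave 409, 388, 277 and 413 with -0.09 ± 0.09, and hsa-miR-892a gave 472, 631, 372 and 443 with -0.17 ± 0.10.

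Of the miR-302 and miR-371 to miR-373 group, known from pluripotent cells, 4 of 11 probes were detected. hsa-miR-302f was bright, at 2971, 4315, 3185 and 5234 on Days 2, 4, 6 and 8, with a Day 8 SLR of 0.54 ± 0.11. Of the mouse-named probes for this number, that of miR-302a gave 2325, 2457, 1805 and 3331, with a Day 8 SLR of 0.36 ± 0.06, and those of miR-302b, miR-302c and miR-302d stayed under 300. hsa-miR-302c* gave 376, 419, 296 and 459, while hsa-miR-302e gave 245, 377, 193 and 269 and hsa-miR-373* gave 146, 154, 126 and 333. The last 2 were above 300 on 1 array each.

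Of the neuron-enriched numbers 5 of 12 probes were detected, including the miR-129 probe above. hsa-miR-138-2* gave 476, 401, 227 and 224 and was at least 1.47-fold lower on Day 8. The mouse-named probe of miR-138-2* was brighter and above 300 on every array, at 6959, 8357.5, 4883 and 5756. Its signal was highest on Day 4, and its Day 8 SLR was -0.45 ± 0.04, a smaller decrease than that bound. hsa-miR-149* gave 4557, 5067, 3403 and 4717 with a Day 8 SLR of -0.19 ± 0.11, and rno-miR-328b-3p did not exceed 300.3. The 4 human or rat probes of let-7 and miR-98, and the 1 probe each of the miR-29 and miR-30 families, stayed under 300 on every array.

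The trend over day was fitted by limma for the 628 miRNA-named probes with a mean signal of 300 or more over the arrays, of which 206 were members. Benjamini-Hochberg adjustment ran over all 628. With 4 arrays and 2 residual degrees of freedom, the test describes how closely 4 pools follow a line. Of the 206 members, 8 rose with day, against 3.98% of all probes tested, and 13 fell, against 8.28%. Of the members tested, 164 were human-only and 42 rat-named. The rising members were all human-only, and the falling ones comprised 9 human-only and 4 rat-named probes. The kinds were not tested against each other.

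The steepest rising members were hsa-miR-1973 (0.28 ± 0.04 log2 per day, SE, limma adjusted p = 0.0192), hsa-miR-711 (0.27 ± 0.02, limma adjusted p = 0.00952), hsa-miR-3146 (0.15 ± 0.03, limma adjusted p = 0.0472), hsa-miR-1246 (0.14 ± 0.02, limma adjusted p = 0.0409) and hsa-miR-1915 (0.14 ± 0.02, limma adjusted p = 0.0254). The steepest falling members were hsa-miR-106a (-0.23 ± 0.02 log2 per day, limma adjusted p = 0.00952), hsa-miR-18b (-0.22 ± 0.02, limma adjusted p = 0.00952), the miR-493* probe (-0.21 ± 0.03, limma adjusted p = 0.026), hsa-miR-301b (-0.20 ± 0.02, limma adjusted p = 0.00952) and hsa-miR-4324 (-0.18 ± 0.02, limma adjusted p = 0.0141). hsa-miR-92a missed the threshold (limma adjusted p = 0.0516). hsa-miR-3146 was under 300 on Day 2 and hsa-miR-301b on Days 6 and 8, so their slopes rest partly on signals below the detection threshold.

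The number of calls changed with the arrays used. Without the Day 2 array 29 of 203 members rose and 19 fell, against 72 and 67 of all 623 probes tested. Without the Day 4 array 1 of 202 members rose and 4 fell, against 9 and 13 of all 613. Without the Day 6 array no probe passed in limma. At an unadjusted limma p under 0.05, 23 members then rose and 28 fell, against 70 and 94 of all 640 probes. Without the Day 8 array none passed either, with 16 and 15 members at an unadjusted limma p under 0.05, against 71 and 56 of all 617 probes. With endogenous control scaling 35 of 206 members rose and 8 fell, against 109 and 26 of all 628 probes.

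Where a mouse probe of the same name existed, both probes could be followed side by side, and 20 of the 33 mouse probes were detected. In 12 pairs both probes were at 300 or more on Days 2 and 8, and without the saturated miR-720 pair 11 could be compared by SLR. The difference of the Day 8 SLRs, member minus mouse probe, had a median size of 0.14. It was within 1 SD over spots in 5 pairs and past 2 SD in 3 pairs. In 10 of the 11 pairs both SLRs lay on the same side of the 0.6 limits, which includes pairs where neither probe passed. Both probes passed 0.6 for miR-106a, miR-665, miR-711 and miR-376a only. Of all detected probes, 12.2% were higher and 9.93% lower by over 0.6 on Day 8, so most passed neither limit. The differences depended on the normalization for some pairs. Under the 4 other scalings that of miR-298 turned from 0.12 to -0.03 and that of miR-665 from -0.01 to 0.07, both small, and that of miR-711 shrank to -0.06. Signals of different probes cannot be compared as amounts, so they are given side by side only.

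For miR-106a the human probe had an SLR of -1.37 ± 0.18 on Day 8 and the mouse probe -1.37 ± 0.22. The human probe gave 1543, 1143, 531 and 531.5 on Days 2, 4, 6 and 8, and the mouse probe 5207, 4308, 2165 and 2159. The pair moved alike within the spread of spots. For miR-665 the SLRs were 0.64 ± 0.11 for the human and 0.64 ± 0.16 for the mouse probe, whose signals were 1889, 2167, 1576 and 3271.

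For miR-711 the human probe had 1.68 ± 0.11 and the mouse probe 1.89 ± 0.06, a difference of -0.22 ± 0.13. The mouse probe gave 1788, 3208, 3067 and 7138, so both probes were highest on Day 8. For miR-376a the SLRs were 0.77 ± 0.12 and 0.96 ± 0.16, a difference of -0.20 ± 0.20, which was -0.57 under the 4 other scalings and 0.10 in the deposited value table. The mouse probe gave 3159, 6709, 4953 and 6785.

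For miR-300 the human probe gave 959, 1077, 887 and 1464 and the mouse probe 649.7, 1123, 839 and 1123, with Day 8 SLRs of 0.42 ± 0.08 and 0.56 ± 0.16. For miR-298 the human probe gave 1160, 1313, 787 and 1221 and the mouse probe 2689, 2987, 2147 and 2671, with SLRs of -0.05 ± 0.07 and -0.17 ± 0.07. Neither number passed 0.6. For miR-136* the member is given above, and its mouse probe gave 273, 641, 528 and 701, being under 300 on Day 2. The human miR-720 probe is given above too, and its mouse probe gave 61144, 61868, 61779 and 61684.

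The 3 pairs that differed by more than 2 SD were those of miR-493*, miR-185* and miR-742. For miR-493* the member had an SLR of -1.33 ± 0.15 and the mouse probe -0.56 ± 0.33, a difference of -0.77 ± 0.36. The mouse probe gave 4574, 5535, 3254 and 3387, so it was highest on Day 4, when the member was below its own Day 2 signal. For miR-185* the rat probe gave 1391, 1168, 970.2 and 2323 and the mouse probe 1034, 992, 803 and 1158. The SLRs were 0.56 ± 0.04 and 0.01 ± 0.10, a difference of 0.55 ± 0.11. For miR-742 the rat probe gave 929, 1140, 716 and 889 and the mouse probe 1559, 1324, 904 and 1146, with SLRs of -0.16 ± 0.08 and -0.49 ± 0.04, a difference of 0.33 ± 0.10. Under the other settings these 3 differences ran from -1.09 to -0.77, from 0.55 to 0.63 and from 0.27 to 0.36 in that order. The mature mouse miRNAs for the last 2 are shown because the probes of equal name differed.
mmu-miR-185-3p: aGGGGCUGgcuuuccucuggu
mmu-miR-742-3p: gAAAGCCAccaugcuggguaaa

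They lie at chr16:18327405-18327425 within the span of Tango2 and at chrX:66780376-66780397. The spread of spots behind these differences is technical, and with 1 array a day no test of them exists.

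In 13 of the 33 pairs the mouse probe stayed under 300 on every array. The human or rat probe of each pair reached 300 on at least 1 array by the rule that chose it, so the reverse could not occur. Of all mouse-named probes, 40.7% (419 of 1030) reached 300 on at least 1 array. In 10 of the 33 pairs the mouse probe was under 150 on every array. The brightest such member was that of miR-205*, whose other arm is known as an epithelial miRNA. There the human probe gave 17129, 19503, 11594 and 12318 on Days 2, 4, 6 and 8 and the mouse probe 46.2, 108, 45.6 and 44.2. For miR-149* the human probe gave the 4 values above, and the mouse probe -49.2, 6.54, 27.7 and 25.4. For miR-134*, whose rat probe is given above, the mouse probe gave 26.4, 4.08, 12.6 and 11.6.

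The same held for members of the miR-17-92 group. The mouse probe of miR-18b gave 47.8, 42.6, 42.1 and 39.2, and that of miR-92a gave 56.3, 36.8, 53.0 and 28.2, whereas the human probes of both were above 300 on every array. The mouse probe of miR-193b gave -29.8, 24.3, 49.7 and 54.5. The mature mouse sequences of these names, beside those of miR-18b and miR-92a printed above, are shown because the probe that carried the mouse name gave no signal above the threshold.
mmu-miR-205-3p: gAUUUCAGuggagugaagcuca
mmu-miR-149-3p: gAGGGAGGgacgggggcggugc
mmu-miR-134-3p: cUGUGGGCcaccuagucacc
mmu-miR-193b-3p: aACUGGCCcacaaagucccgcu

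The first 2 lie at chr1:193507467-193507488, within the span of Mir205hg, and chr1:92850421-92850442, within the span of Gpc1, and the others at chr12:109734184-109734203 and chr16:13449570-13449591. The seed of miR-134-3p was shared with 1 other mature mouse miRNA of the table, miR-3620-5p, and that of miR-193b-3p with miR-193a-3p. The seed of miR-149-3p was shared with 3 others, miR-1943-5p, miR-6967-5p and miR-7016-5p, and that of miR-205-3p with none. Whether the human and rat probes bound these miRNAs or other RNAs was not tested.

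Among members that shared a number with one another, the time courses could be compared within a family, and these families are named after their values were seen. The 4 human miR-320 probes had Day 8 SLRs of -0.09 ± 0.06 for hsa-miR-320e, -0.14 ± 0.09 for hsa-miR-320b, -0.32 ± 0.25 for hsa-miR-320c and -0.37 ± 0.08 for hsa-miR-320d. hsa-miR-320d gave 4242, 4156, 2767 and 3660. The probe that names human, mouse and rat miR-320 had an SLR of -0.00 ± 0.30 and gave 546, 605, 494 and 573.

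The rat miR-466 family, whose mouse relatives lie in a large cluster within Sfmbt2, had 6 members. Their Day 8 SLRs ran from -0.17 ± 0.08 for rno-miR-466c to 0.34 ± 0.10 for rno-miR-466b-1*, which gave 1271, 1598, 1088 and 1753. The rat miR-344 family had 4 members, from -0.56 ± 0.03 for the miR-344a-5p probe to 0.34 ± 0.19 for rno-miR-344b-1-3p. None of these 14 family members passed 0.6 on Day 8, where 12.2% of all detected probes were higher and 9.93% lower.

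Among all rat-named members, 3 of 47 were higher by over 0.6 on Day 8 and 7 were lower. Among human-only members, 29 of 196 were higher and 15 lower. As shares these were 6.38% higher and 14.9% lower of rat-named members and 14.8% and 7.65% of human-only members, against 12.2% and 9.93% of all detected probes. The difference between the kinds was not tested. With 300 or more on both arrays, 2 of the 47 rat-named members were higher and 5 lower. Under the same filter 16 of the 196 human-only members were higher and 7 lower. Of all 705 detected probes, 54 were then higher and 51 lower. The brightest rat-named member was rno-miR-1188-3p, named after its values were seen, which gave 10115, 13765, 8842 and 10867, while the mouse probe of miR-1188* gave 70.6, 62.8, 67.3 and 71.5.

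For 11 members the median over replicate spots was under 300 on every array. hsa-miR-627 was detected through 1 of its 4 spots on Day 8, at 60916, while its other Day 8 spots gave 99.9, 87.8 and 95.9. hsa-miR-1267 was detected through 1 Day 8 spot at 39127, with 77.2, 62.5 and 65.7 on the others. hsa-miR-586 had 1 Day 4 spot at 14812 and the other 15 spots of the 4 arrays at 59 or less. hsa-miRPlus-A1065 had 1 Day 4 spot at 2565, hsa-miR-1229 had 1 Day 2 spot at 1904, and hsa-miR-1914 had 2 Day 4 spots at 921 and 1530. The mean over spots made these probes members, and it also gave them SLRs past 0.6 with SDs up to 4.05.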

How the data were processed

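MicroRNA signals of 4 arrays, 1 per day of culture, were analysed. The deposited scanner files hold green intensity for the Hy3 dye, with local background, and the percent of saturated pixels, as the authors' scanner software wrote them for 12312 spots per array without normalization between arrays. The deposited value table holds intensity too, and was used as an alternative. Each of its values was the spot-averaged median signal less background (to within 4.4e-06). The labels describe the probes as those for mouse miRNAs, while the files also name human, rat and viral ones.

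Members were probes naming hsa-miR, hsa-let, rno-miR or rno-let and no mouse miRNA, with a mean background-subtracted signal over spots of 300 or more on at least 1 array. The members and lists were chosen with earlier results of these data known. Mean foreground was corrected with normexp (offset 50) and quantile-normalized over miRNA spots in limma 3.58.1 (R 4.3.3), and spots were averaged. Differences past 0.6 on the log2 scale were counted, and a linear trend over day was fitted with lmFit and eBayes (two-sided, adjusted p of 0.05, 2 residual degrees of freedom) after a check on simulated data. The number of arrays limits the precision.

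Members named are the 8 largest differences each way on Day 8 and the 3 largest on Days 4 and 6, with signal of 300 on both arrays and non-overlapping spots, the 8 brightest, the 5 steepest trends each way, the 10 brightest pairs of equal name and the 5 pairs that differed most, up to 2 at each end of each list, and 3 probes on each side of the threshold. Alternatives were 9 other scalings, signal measures and filters on spots, other detection filters, and each array left out of the trend. Mouse sequences and coordinates are those of RefSeq on GRCm38.p6.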

Additional observations from a re-analysis of the deposited data

Results flagged for a closer look

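A signal in the red channel, where no dye was used, was recorded on the spots of members and entered no comparison other than the alternative that leaves out spots bright in that channel. On 2 member spots it was 1000 or more, both on the Day 8 array. The single bright spot of hsa-miR-627 gave 21730 in the red channel, and the single bright spot of hsa-miR-1267 gave 8871. No other member spot exceeded 365 in the red channel on any array. The Day 8 detection of both probes rests on these spots.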

How the results depend on the processing

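Of 22 named members past 0.6 on Day 8, 21 kept their sign under all 9 alternative scalings, signal measures and filters on spots. The exception was hsa-miR-373*, at -0.037 without normalization. Past 0.6 under all 9 were 14 of the 22. The others fell short without normalization (7 members), with median scaling (6), spike-in controls (5), endogenous controls (4) or the median of spots (1), and their weakest values were -0.11 for rno-miR-664-1*, -0.15 for hsa-miR-3607-3p, 0.42 for hsa-miR-376a, 0.43 for hsa-miR-1915, -0.50 for hsa-miR-4324, 0.50 for hsa-miR-3146 and 0.57 for the miR-136* probe. The counts moved with the scaling, and the median Day 8 log2 difference of all detected probes was -0.02 in the main setting, 0.17 with endogenous controls, -0.17 with median scaling and -0.26 without normalization. Median scaling gave 3 higher and 12 lower members on Day 4, 7 and 19 on Day 6, 41 lower on Day 8 and 21 falling. Spike-in controls gave 0 higher and 61 lower on Day 4, 0 and 144 on Day 6, 36 lower on Day 8, and 2 rising and 0 falling by limma (4 and 9 at an unadjusted p under 0.05). No normalization gave 2 and 13 on Day 4, 0 and 158 on Day 6, 16 and 48 on Day 8, and 2 rising and 5 falling. On Day 6 the median difference of all detected probes was -0.64 with spike-in controls and -0.67 without normalization. Endogenous controls gave 3 lower on Day 4, with 35 rising and 8 falling. A filter of 300 on all arrays left 159 members, with 4 higher and 3 lower on Day 4, 4 lower on Day 6, 18 and 12 on Day 8, and 8 falling. The lower members numbered 17 (floor of 50) and 12 (deposited table) on Day 6, and 3 on Day 4 with the median foreground, the median of spots or, an alternative chosen after seeing the data, without members resting on few spots. The deposited table gave 4 rising. Leaving out 1 array moved the rising count between 0 and 29 and the falling count between 0 and 19. The cause of these shifts was not tested.

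No paired analysis was possible because each day had 1 array. Members under 300 on an array have only a bound there, and saturated probes can show no change.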
